A study of Glycine max with 6 samples.

Results

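WRKY transcription factors bind DNA through a conserved domain with a zinc finger, and most of them recognise the W box in the promoters of their target genes. The family is specific to green plants and a few other lineages, is sorted into group I, groups IIa to IIe and group III by its domains and zinc fingers, and is best known for the control of defence, senescence, and responses to phosphate and metal stress. Some members activate and others repress their targets, and many are themselves induced within the same responses.

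The members described here were all genes whose protein description in the deposited tables contains the word WRKY, after setting aside disease resistance proteins, of which there were 0. The rule gave 148 of the 48667 genes listed in at least 1 library. RNA came from roots of soybean (Glycine max) grown in hydroponic culture for 30 days at pH 5.8 (control) or at pH 4.2 (acid-treated), with 3 libraries in each group and the roots of pooled plants in each library. The labels name no transgene or mutation, and the labels and the methods text give different cultivar names (YC03-3 and Huachun 6) for the plants. The groups were labelled by pH alone. The methods text gives daily pH adjustment with potassium hydroxide or sulfuric acid, and whether potassium or sulfate supply then differed between groups is not stated. The question was which members of the family differed between roots of the pH-treatments. The labels do not say whether the replicates were separate cultures, so p-values measure the spread between these libraries.

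Among the members, 143 were annotated soybean genes and 5 were predicted by the authors' assembly. The number in the description followed the Arabidopsis names in 140 members, which shared 46 different numbers, so most numbers stood for several soybean copies. A further 6 members carried soybean's own WRKY numbers, which do not match the Arabidopsis ones, and 2 had no number. The family label was checked against the KEGG orthology term, a separate annotation in the same tables, which names a WRKY factor for 143 of the 148 members. Glyma.03G256600, chosen for mention after its values were seen, is described first as an anthocyanidin reductase-like protein, with a WRKY53 only later in its description. A KEGG WRKY term was also given to 30 genes outside the rule, of which 22 were tested and 1, Glyma.04G173500, fell at pH 4.2 (log2 fold change -1.77, SE 0.28, adjusted p = 0.0391 in edgeR's quasi-likelihood test). DESeq2 called 2 of them higher, Glyma.03G002300 (edgeR log2 fold change 3.02) and Glyma.18G213200 (1.78), and 2 lower. Over all genes, edgeR called 0.227% higher and 0.331% lower, and DESeq2 1.22% and 1.55%. The 30 genes outside the rule are not counted below.

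Library totals lay between 9137226 and 9358750 expected counts, and 3 counts, the floor used here for a gene seen rarely, equalled 0.312 to 0.340 CPM, which scales counts to the library's size. The members held 0.221%, 0.171% and 0.158% of all counts in acid-treated replicates 1, 2 and 3, and 0.211%, 0.157% and 0.271% in control replicates 1, 2 and 3. Control replicate 2 was often the lowest library for this family and control replicate 3 often the highest, as described below. The family's counts of changed members are given with and without control replicate 2. Those for the other libraries left out are in the closing section. The root label was checked against marker lists. The 11 Casparian strip membrane protein genes, which mark the endodermis, were all tested, 0 were called by either tool, 0 had an unadjusted p under 0.05 in edgeR, and their summed FPKM was 101 to 125 in acid-treated and 38.3 to 122 in control libraries. The 4 high affinity nitrate transporter genes summed to 17.5 to 22.4 FPKM in acid-treated and 404 to 813 in control libraries, and the 3 that were tested were all called lower. Of 37 leaf marker genes (chlorophyll a-b binding proteins and the small Rubisco subunit), 0 were called by either tool. At an unadjusted p under 0.05 in edgeR, 2 were higher (6.25% of those tested, against 4.21% of all tested genes). The summed FPKM of the leaf list was 1493 to 2354 in acid-treated and 1295 to 2082 in control libraries, above the Casparian strip sum in every library. Leaf marker transcripts were thus present in both groups, and their source was not tested. The word leghemoglobin matched 2 reductase genes and no leghemoglobin, so nodule tissue had no marker in the list. In bulk roots, fewer cells of a type and less RNA per cell cannot be told apart.

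Levels were compared between genes on the FPKM scale, which divides by transcript length and library total. Most members were low. The median member had a mean of 3.20 FPKM over the 6 libraries, 46 members were under 1 FPKM, 67 lay from 1 to under 10, and 35 reached 10 or more. The 5 most abundant genes held 27.3% of the family's FPKM. Summed over the family, the level was 1298 ± 346 FPKM in control roots and 1142 ± 206 FPKM in acid-treated roots (SD, n = 3 libraries in each), so the groups overlapped.

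The highest member was Glyma.08G118200 (WRKY65, group IIe), with 185, 91.7 and 173 FPKM in control replicates 1, 2 and 3 and 119, 82.6 and 62.8 FPKM in the acid-treated ones. The other WRKY65 gene, Glyma.05G160800, had 112, 44.8 and 118 FPKM in control and 57.9, 49.0 and 42.02 FPKM in acid-treated roots. In both genes, control replicates 1 and 3 were similar, and control replicate 2 lay within the acid-treated range, so the groups overlapped. Neither was called, with log2 fold changes (acid over control) of -0.75 (SE 0.36, adjusted p = 0.469 in edgeR) and -0.87 (SE 0.36, adjusted p = 0.392 in edgeR).

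The third gene in order, Glyma.04G076200 (WRKY50 in soybean's own numbering), had 78.0, 60.8 and 80.7 FPKM in control and 60.8, 54.4 and 54.7 FPKM in acid-treated roots. Control replicate 2 and acid-treated replicate 1 were level. Glyma.17G197500, a WRKY11 gene of group IId, the group whose members carry a calmodulin-binding stretch, had 31.4, 41.5 and 49.1 FPKM in control and 51.8, 38.5 and 31.0 FPKM in acid-treated roots. Glyma.17G168900 (WRKY15, group IId) had 40.7, 36.2 and 46.99 FPKM in control and 40.5, 31.2 and 30.04 FPKM in acid-treated roots. The libraries of the pH-treatments were interleaved in the WRKY11 and the WRKY15 gene, and the order of these genes is not resolved by their spread. The WRKY11 gene had a log2 fold change near 0 (0.01, SE 0.26) that turned negative under 4 of the alternative settings listed in the closing section and when either of 2 libraries was left out.

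**Figure D1:**
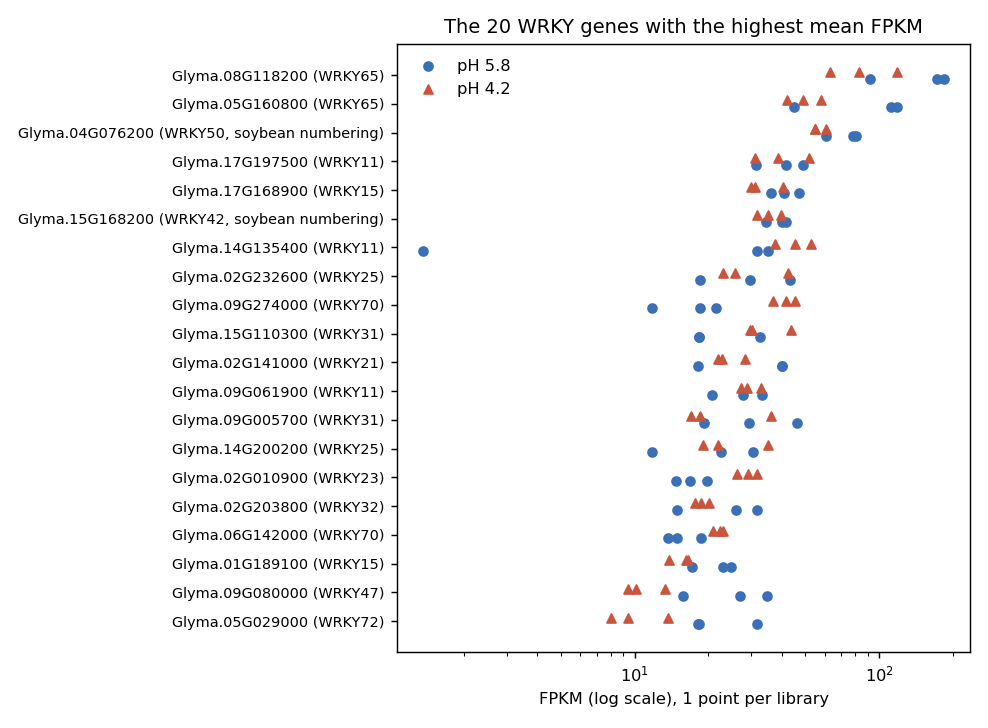
FPKM of the 20 most abundant WRKY genes, with 1 point for each library on a log scale, circles for pH 5.8 and triangles for pH 4.2. The groups overlap in most of these genes, and the circle at 1.36 FPKM for Glyma.14G135400 is control replicate 2.

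The test across all genes compared the pH-treatments with edgeR on rounded expected counts, and a gene was called when it changed at least 2-fold with an adjusted p under 0.05. Of the 148 members, 109 had enough counts to be tested, and of the 39 others, 38 had a mean under 1 FPKM. By this test 1 member rose, Glyma.14G103100 (WRKY40), and 0 fell, beside 0.227% of all 33490 tested genes called higher and 0.331% called lower. At an unadjusted p under 0.05, 13 members were higher and 13 lower, against 4.21% and 7.61% of all tested genes. In 15 members every acid-treated library lay above every control library, and in 12 every one lay below (all tested genes, 7.17% and 9.24%). With DESeq2, the tool the authors used, 3 of 129 members with an adjusted p were called higher and 2 lower, against 1.22% and 1.55% of 38245 genes. The paper states a p value under 0.05 with a 2-fold change and does not say whether it was adjusted. Its count of changed WRKY genes is thus not the count given here. Among its up-regulated genes the paper names Glyma.14G103100.

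The tested members' median log2 fold change was -0.20, with 42 positive and 67 negative, where the median of all tested genes was -0.003. The values ran from -1.89 to 4.09, with 13 members at 1 or more and 18 at -1 or less. Only 6 members had an adjusted p under 0.2 in edgeR. Because the filter keeps genes with counts in at least one of the groups, these shares describe the tested members and not all 148.

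**Figure D2:**
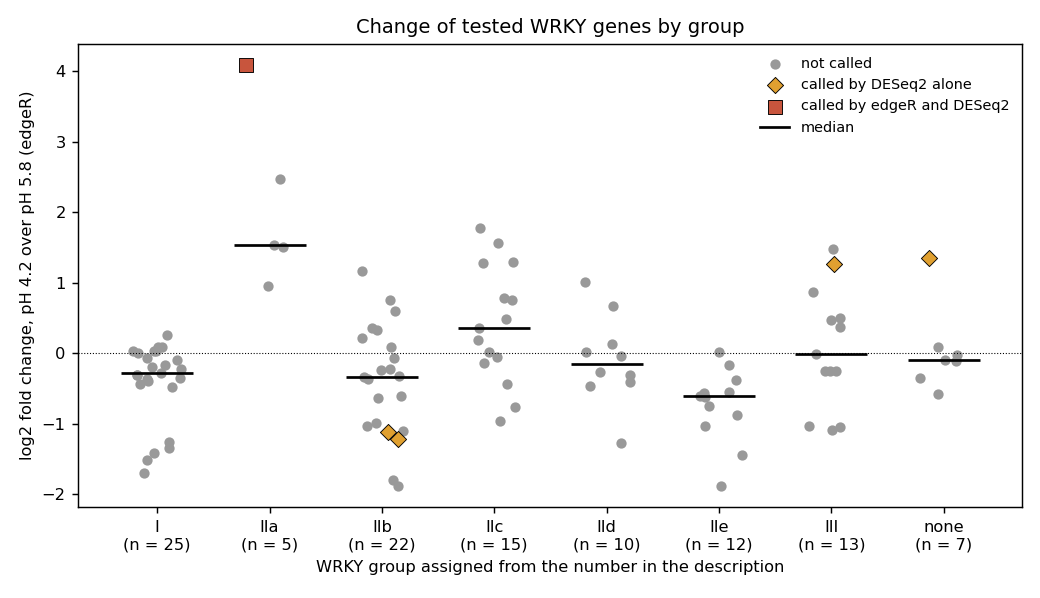
Log2 fold change (pH 4.2 over pH 5.8, edgeR) of the 109 tested WRKY genes by WRKY group, with squares for genes called by edgeR and DESeq2, diamonds for genes called by DESeq2 alone, and lines for medians. All 5 tested group IIa genes lie above 0, with a median of 1.54, and 11 of 12 group IIe genes lie below 0, with a median of -0.61. Some of the group IIa genes passed the count filter through the acid-treated libraries.

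The groups differed in the direction of their members' values, as a description with no test of the groups. Group IIa, here made up of 7 genes with WRKY40 in their descriptions, had 5 tested genes, all positive, with a median log2 fold change of 1.54. Of these, Glyma.04G061400 is described first as a WRKY17 protein, with WRKY40 only later in its description. Glyma.06G061900, also described as a WRKY17 protein, was counted under soybean's own numbering and given no group (log2 fold change -0.10). The summed level of group IIa was 9.14 ± 4.22 FPKM (range 4.45 to 12.6) in control and 24.2 ± 7.21 FPKM (range 16.5 to 30.8) in acid-treated roots, a ratio of 2.65 with no overlap. Most of this sum came, in every library, from Glyma.07G023300, which was not called. Group IIe went the other way, with 11 of 12 tested genes negative and a median of -0.61. Its sum was 305 ± 99.3 FPKM in control and 186 ± 41.8 FPKM in acid-treated roots (SD, n = 3 libraries), and the lowest control library, at 191, lay inside the acid-treated range of 152 to 233. Most of this sum came from the WRKY65 genes, with 136 to 297 FPKM in control and 105 to 177 FPKM in acid-treated libraries.

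Group I, whose members carry a pair of WRKY domains, had 18 of 25 tested genes negative (median -0.28), and group IIb had 15 of 22 negative (median -0.33). Group IIc had 10 of 15 positive (median 0.36). Group IId, with 4 positive and 6 negative, and group III, with 6 positive and 7 negative, had medians of -0.15 and -0.01. The summed level of group III was 79.2 ± 27.1 FPKM in control and 109 ± 10.8 FPKM in acid-treated roots, without overlap, since its lowest acid-treated library, at 96.4, was just above its highest control library, at 95.4. The WRKY70 genes within it summed to 36.8 to 51.4 FPKM in control and 73.4 to 82.9 FPKM in acid-treated libraries. The group sum thus follows a few abundant genes and does not describe the members in general.

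WRKY40 of Arabidopsis acts with its close relatives to repress immune and abscisic acid responses, and its transcript is induced rapidly by wounding and microbes. Glyma.14G103100 (WRKY40) had 0.20, 0.40 and 0.10 FPKM in control replicates 1, 2 and 3 and 6.14, 4.13 and 2.07 FPKM in acid-treated replicates 1, 2 and 3. Every acid-treated library was above every control library, and the acid-treated ones spread over a wider range. In counts, the control libraries held 2, 4 and 1 and the acid-treated ones 60, 41 and 20, so the control level was at or near the floor of 3 counts. The gene rose 17.01-fold in the fit (log2 fold change 4.09, SE 0.65, adjusted p = 0.0406 in edgeR), from 0.250 ± 0.165 CPM to 4.46 ± 2.28 CPM (SD, n = 3). The ratio of summed counts was 17.9, with an exact 95% interval (Clopper-Pearson) of 8.41 to 45.4 that covers counting error only. In DESeq2 the log2 fold change was 4.19 and the adjusted p 5.1e-05, and over all alternatives that kept the gene the adjusted p ran from 5.1e-05 to 0.201.

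The call in edgeR was lost when acid-treated replicate 1, acid-treated replicate 2, control replicate 1 or control replicate 3 was left out, with log2 fold changes of 3.66 to 4.12 in these fits, and it was kept without either of the others. It was lost as well with a replicate block in the model (log2 fold change 4.07, adjusted p = 0.0734 in edgeR). Removing genes with a mean count under 50 also lost the call, since this gene itself did not pass that filter.

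The other tested WRKY40 genes had positive log2 fold changes that were not called. Glyma.17G222300 had 0.58, 0 and 0.45 FPKM in control and 2, 3.04 and 0.74 FPKM in acid-treated roots, and the groups did not overlap (log2 fold change 2.47, SE 0.88, adjusted p = 0.301 in edgeR). Glyma.04G061400 had 0.39, 0.33 and 0.75 FPKM in control and 1.28, 2.13 and 1.07 FPKM in acid-treated roots, again without overlap (1.54, SE 0.56, adjusted p = 0.313 in edgeR). In Glyma.13G370100 the groups overlapped, with 0.89, 0.37 and 1.47 FPKM in control and 3.79, 2.83 and 1.07 FPKM in acid-treated roots. In this gene acid-treated replicate 3 fell between the control libraries.

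Glyma.07G023300 was the most abundant WRKY40 gene, with 8.26, 3.24 and 9.87 FPKM in control and 16.7, 12.9 and 11.4 FPKM in acid-treated roots. Its groups did not overlap, and its log2 fold change was 0.96 (SE 0.38, adjusted p = 0.362 in edgeR). All 5 tested WRKY40 genes stayed positive in the 13 of 14 alternative fits that kept all of them, and all 5 had an unadjusted p under 0.05. Glyma.14G103100, Glyma.04G061400 and Glyma.17G222300 held 7, 15 and 18 counts over the control libraries and passed the filter through the acid-treated ones. The alternatives reuse the same libraries, so the shared sign is not separate support. Glyma.14G102900, next to the called gene in the identifier order and not tested, had 10, 1 and 2 counts in acid-treated replicates 1, 2 and 3 and 0 in each control library. Acid-treated replicate 1 held most of these counts. The last copy, Glyma.04G061300, held 3 counts in the acid-treated and 1 in the control libraries, at or under the floor.

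**Figure D3:**
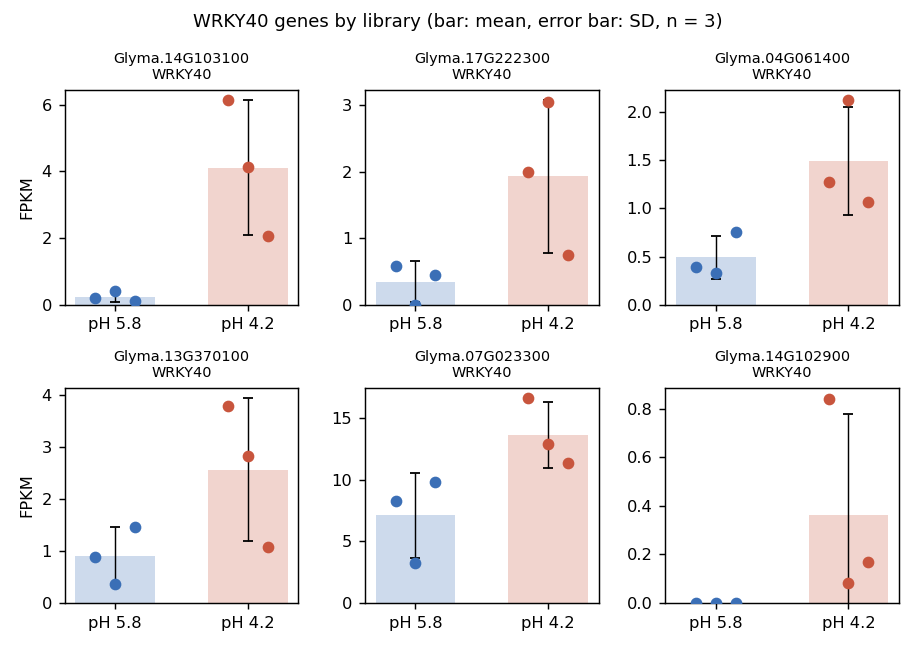
FPKM of 6 of the 7 WRKY40 genes in roots at pH 5.8 (control) and pH 4.2 (acid-treated), with 1 point for each library in replicate order, bars for means and error bars for SD (n = 3), each panel on its own scale. All 3 acid-treated libraries lie above all control libraries in 5 of the 6 panels, the exception being Glyma.13G370100.

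In Arabidopsis, WRKY70 sits between salicylate and jasmonate signalling and promotes salicylate-dependent defence. Of the 8 WRKY70 genes, 5 were tested, with log2 fold changes from -0.01 to 1.27. Glyma.09G274000 (WRKY70, group III) was among the 10 most abundant members, with 18.5, 11.8 and 21.5 FPKM in control and 45.2, 41.7 and 36.8 FPKM in acid-treated roots. The acid-treated libraries were all above the control ones with a wide gap, and the log2 fold change was 1.27 (SE 0.25). Its adjusted p of 0.0829 was the second smallest of the family in edgeR and missed the threshold, while DESeq2 called it (1.30, adjusted p = 0.00116). RSEM had shared some of its reads with other genes in 3 libraries, where its expected counts were not whole.

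The other WRKY70 genes that were named differed less. Glyma.13G267700 had 2.93, 3.68 and 3.29 FPKM in control and 5.61, 7.30 and 5.35 FPKM in acid-treated roots (log2 fold change 0.87, SE 0.26, adjusted p = 0.214 in edgeR). Glyma.06G142000 had 14.9, 13.7 and 18.7 FPKM in control and 20.9, 22.3 and 23.0 FPKM in acid-treated roots (0.50, SE 0.19, adjusted p = 0.324 in edgeR). Both had non-overlapping groups, whereas in Glyma.13G267500, a neighbour of the first in identifier order, the groups overlapped (0.48, SE 0.32).

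Glyma.07G057400, described as a WRKY transcription factor without a number, had 4.54, 12.8 and 5.21 FPKM in control and 15.7, 15.8 and 25.2 FPKM in acid-treated roots. Control replicate 2 stood well above the other control libraries here, the reverse of its place in most members named below, and the groups still did not overlap. Its log2 fold change was 1.35 (SE 0.41, adjusted p = 0.219 in edgeR), and DESeq2 called it (1.38, adjusted p = 0.0481).

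Several further members had non-overlapping higher values in acid-treated roots and were chosen after their values were seen. Both WRKY51 genes, Glyma.06G147100 and Glyma.05G184500, were higher in every acid-treated library, with log2 fold changes of 1.28 and 1.29 (adjusted p = 0.247 and 0.432 in edgeR). WRKY51 of Arabidopsis takes part in the repression of jasmonate responses by salicylate. WRKY23 of Arabidopsis responds to auxin and acts in root development. Glyma.02G010900 (WRKY23) had 16.8, 14.7 and 19.8 FPKM in control and 29.1, 31.6 and 26.3 FPKM in acid-treated roots, with a narrow range within each group and no overlap. Its log2 fold change of 0.78 (SE 0.19, adjusted p = 0.139 in edgeR) was below the 2-fold limit, although its adjusted p in DESeq2 was 0.0263.

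Copies with the same number did not always go together. Of the 4 WRKY23 genes, Glyma.02G010900 and Glyma.19G217800 (log2 fold change 0.76) were higher without overlap, Glyma.10G011300 had 0.49 with overlap, and Glyma.17G035400 was lower without overlap (-0.76). Among the WRKY53 genes, whose Arabidopsis namesake promotes leaf senescence, Glyma.19G254800 was higher without overlap (1.48, adjusted p = 0.295 in edgeR) and Glyma.06G125600 had -1.04 with overlap. In the WRKY61 genes, Glyma.01G043300 had 0.55, 0.49 and 0.91 FPKM in control and 1.68, 1.72 and 1.07 FPKM in acid-treated roots (1.17, adjusted p = 0.314 in edgeR), while Glyma.06G190800 lay lower in every acid-treated library, as given next. None of the copies in this paragraph was called by edgeR, and no difference between copies was tested.

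With all libraries, lower values in acid-treated roots reached the call in DESeq2 and not in edgeR, for a WRKY47 and a WRKY61 gene of group IIb. WRKY47 of Arabidopsis has been tied to cell wall change under aluminium, a stress of acid soils. Glyma.09G080000 (WRKY47) had 26.9, 15.8 and 34.9 FPKM in control and 13.3, 9.36 and 10.1 FPKM in acid-treated roots. The lowest control library was control replicate 2, and it was still above all acid-treated ones. The log2 fold change was -1.22 (SE 0.30, adjusted p = 0.147 in edgeR), against -1.19 (adjusted p = 0.0248) in DESeq2. Glyma.06G190800 (WRKY61) had 12.2, 11.97 and 19.97 FPKM in control and 7.31, 5.02 and 7.61 FPKM in acid-treated roots. Here control replicates 1 and 2 were alike and the groups did not overlap (-1.12, SE 0.27, adjusted p = 0.141 in edgeR, and -1.09, adjusted p = 0.0343 in DESeq2).

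Of the 6 WRKY47 genes, 4 were tested and all 4 had negative log2 fold changes, from -1.88 to -0.22, in the main test and in 11 of the 13 alternative fits that kept all 4. The largest of these, Glyma.13G117600, had 2.17, 0.87 and 3.81 FPKM in control and 0.95, 0.41 and 0.48 FPKM in acid-treated roots. Control replicate 2 fell within the acid-treated range, so the groups overlapped (SE 0.61, adjusted p = 0.253 in edgeR). Glyma.16G177000 (WRKY27), a low member, had 0.94, 0.80 and 1.94 FPKM in control and 0.44, 0.29 and 0.22 FPKM in acid-treated roots. It had the lowest log2 fold change of the family, -1.89 (SE 0.57, adjusted p = 0.218 in edgeR), with no overlap.

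Glyma.05G029000 (WRKY72, chosen after its values were seen) had 18.1, 18.4 and 31.6 FPKM in control and 13.6, 9.35 and 8.01 FPKM in acid-treated roots. The groups did not overlap (-1.11, SE 0.30, adjusted p = 0.171 in edgeR). WRKY72 acts in basal defence in tomato and Arabidopsis. Glyma.05G123000 (WRKY9) and Glyma.07G227200 (WRKY3), chosen in the same way, were also lower without overlap, with log2 fold changes of -1.03 and -1.42 (edgeR, adjusted p = 0.219 and 0.261).

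WRKY33 of Arabidopsis is needed for resistance to necrotrophic fungi and drives synthesis of the phytoalexin camalexin. All 4 tested WRKY33 genes of 5 had negative log2 fold changes, in the main test and in all 14 alternative fits, and none was called with all libraries. Glyma.01G128100 had 7.72, 0.52 and 9.19 FPKM in control and 2.78, 1.34 and 1.06 FPKM in acid-treated roots (-1.69, SE 0.82, adjusted p = 0.483 in edgeR). Glyma.18G208800 had 11.8, 2.74 and 14.02 FPKM in control and 4.14, 3.29 and 2.72 FPKM in acid-treated roots (-1.51, SE 0.53, adjusted p = 0.297 in edgeR). In both, control replicates 1 and 3 were well above the acid-treated libraries, and control replicate 2 was at the bottom of their range or below it.

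Glyma.03G042700 (WRKY33) had 6.06, 0.11 and 7.80 FPKM in control and 2.61, 1.85 and 0.92 FPKM in acid-treated roots (-1.35, SE 0.96, adjusted p = 0.651 in edgeR). Glyma.09G280200 (WRKY33) had 14.3, 6.30 and 20.9 FPKM in control and 6.08, 5.59 and 6 FPKM in acid-treated roots (-1.26, SE 0.39, adjusted p = 0.238 in edgeR). The last was the only WRKY33 gene whose groups did not overlap, by a narrow gap below control replicate 2. Glyma.08G320200 (WRKY6, which in Arabidopsis represses the phosphate exporter gene PHO1) had 6.34, 1.46 and 7.66 FPKM in control and 1.62, 1.60 and 1.11 FPKM in acid-treated roots (-1.80, SE 0.55, adjusted p = 0.225 in edgeR). Its control replicates 1 and 3 were above the acid-treated libraries, and control replicate 2 lay within their range.

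**Figure D4:**
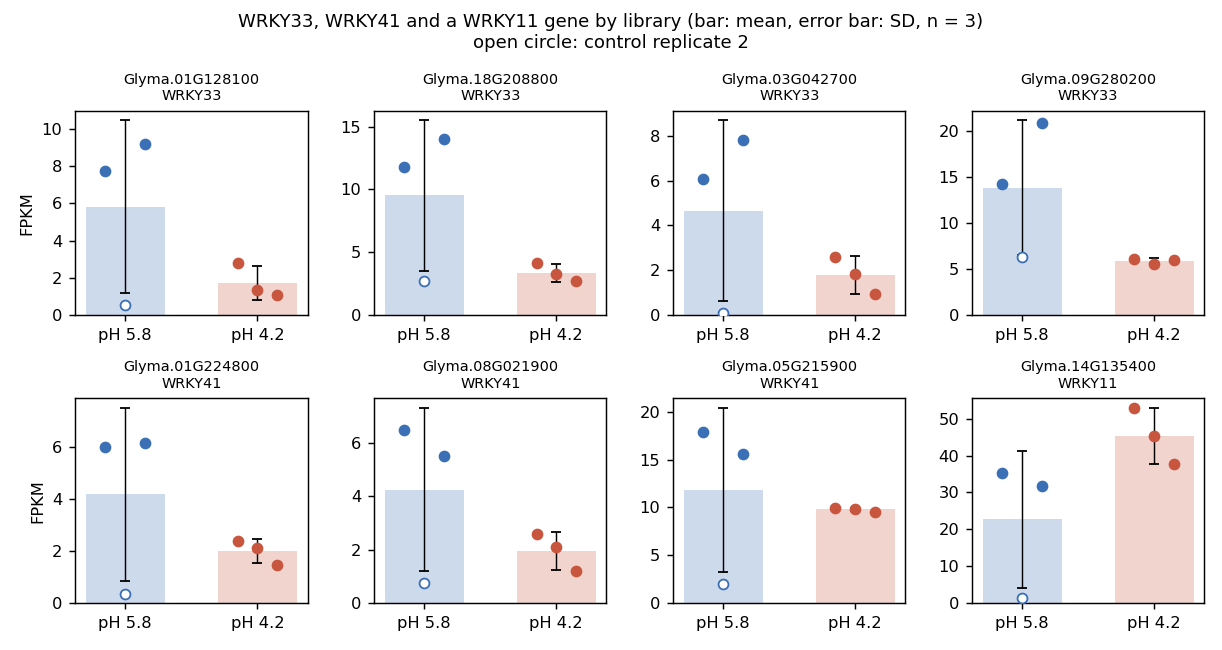
FPKM of 4 WRKY33, 3 WRKY41 and 1 WRKY11 gene in roots at pH 5.8 (control) and pH 4.2 (acid-treated), with 1 point for each library, bars for means and error bars for SD (n = 3), each panel on its own scale. The open circle, control replicate 2, is the lowest control library in all 8 panels and lies above the acid-treated libraries only in Glyma.09G280200.

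High control replicates 1 and 3 with a low control replicate 2 were also found in the WRKY41 genes, chosen after their values were seen. Glyma.01G224800 had 6, 0.34 and 6.14 FPKM in control and 2.37, 2.12 and 1.47 FPKM in acid-treated roots. Glyma.05G215900 had 17.9, 1.99 and 15.5 FPKM in control and 9.95, 9.84 and 9.56 FPKM in acid-treated roots. Control replicate 2 was thus the lowest of all 6 libraries in these genes, and in Glyma.08G021900 (-1.09) as well. The log2 fold change of Glyma.05G215900 was -0.25 and turned positive under 3 alternative settings and without control replicate 1. WRKY46 of Arabidopsis represses the malate channel gene ALMT1, and its only soybean namesake here, Glyma.16G026400, had 4.95, 1.14 and 4.20 FPKM in control and 2.72, 2.93 and 2.87 FPKM in acid-treated roots, so the acid-treated libraries lay between the control ones (-0.26, positive without control replicate 1).

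Glyma.14G135400 (WRKY11), the seventh most abundant member, was the widest case among members with a mean of 10 FPKM or more. It had 35.2, 1.36 and 31.7 FPKM in control and 52.8, 45.3 and 37.6 FPKM in acid-treated roots. The groups did not overlap, and the log2 fold change of 1.01 (SE 0.80, adjusted p = 0.689 in edgeR) became 0.46 without control replicate 2. It was chosen after its values were seen.

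Control replicate 2 was the lowest of the 6 libraries in 35 of the 109 tested members (32.1%), against 13.9% of all tested genes. Its CPM was below 0.5 of the lower of the other control libraries in 25 members (22.9%), against 2000 of 33490 genes (5.97%). Control replicate 3 was the highest library in 49 members (44.95%), against 23.4% of all genes, and acid-treated replicate 1 in 32 (29.4%), against 13.5%. The spread within each group was thus wide for this family. What set control replicates 2 and 3 apart was not tested.

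**Figure D5:**
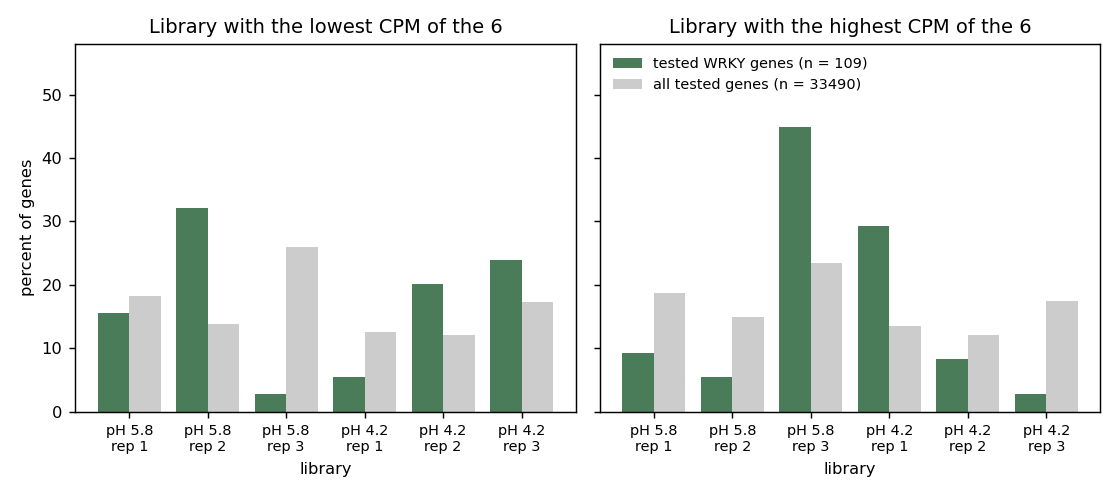
Percent of the 109 tested WRKY genes and of all 33490 tested genes for which each library had the lowest (left) or the highest (right) CPM of the 6 libraries. Control replicate 2 is lowest for 32.1% of the WRKY genes and 13.9% of all genes, and control replicate 3 is highest for 44.95% and 23.4%.

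With control replicate 2 left out, a step chosen with its low values known, edgeR called 3 of 113 tested members higher and 8 lower, against 1.02% and 2.24% of 34461 genes. At an unadjusted p under 0.05, 10 members were then higher and 27 lower (all genes, 7.5% and 11.3%), where 13 and 13 had been with all libraries. The remaining libraries did not overlap in 17 members that were higher and 37 that were lower (all genes, 16.1% and 20.7%). The median log2 fold change of the members was -0.27, with 37 positive and 76 negative, and that of all genes 0.01. The members called lower were the WRKY33 genes Glyma.01G128100 (-2.23), Glyma.18G208800 (-1.95) and Glyma.09G280200 (-1.60), the WRKY6 gene Glyma.08G320200 (-2.23), the WRKY27 gene Glyma.10G230200 (-1.94), the WRKY41 gene Glyma.01G224800 (-1.57), the WRKY47 gene Glyma.09G080000 (-1.47) and the WRKY65 gene Glyma.05G160800 (-1.19). Their adjusted p-values in edgeR ran from 0.0110 to 0.0409. Those called higher were Glyma.14G103100 (WRKY40, 4.69), Glyma.07G057400 (no number, 1.98) and Glyma.09G274000 (WRKY70, 1.06). DESeq2 without the same library called 3 members higher and 13 lower, against 2.29% and 3.0% of 37940 genes. Leaving out a library for its low values raises the control mean of those members, so these calls are not separate support for a decrease. Without control replicate 3 instead, edgeR called 0 of 112 tested members higher and 0 lower. The log2 fold changes of Glyma.01G128100, Glyma.18G208800 and Glyma.08G320200 were then -1.19, -1.10 and -1.42.

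WRKY75 of Arabidopsis is induced by phosphate starvation and affects root hairs. Of its 3 soybean namesakes 2 were tested. Glyma.19G094100 had 3.94, 0.22 and 3.46 FPKM in control and 18.5, 6.08 and 1.14 FPKM in acid-treated roots, and Glyma.16G054400 had 1.39, 0.65 and 1.90 FPKM in control and 7.90, 2.92 and 0.67 FPKM in acid-treated roots. In both, acid-treated replicate 1 was highest and acid-treated replicate 3 lay within the control range. The log2 fold changes of 1.77 (SE 1.002, adjusted p = 0.559 in edgeR) and 1.56 (SE 0.80, adjusted p = 0.513 in edgeR) were not called, and they were 0.49 and 0.44 without acid-treated replicate 1. Both copies were positive in the 13 of 14 alternative fits that kept them both.

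Genes that work with WRKY factors were listed by description. For comparison with each list, edgeR called 0.227% of all tested genes higher and 0.331% lower, and DESeq2 called 1.22% and 1.55%. At an unadjusted p under 0.05 in edgeR, 4.21% of all tested genes were higher and 7.61% lower. VQ proteins bind WRKY factors and alter their activity. Of 30 VQ genes 24 were tested, and in edgeR 0 rose and 1 fell, with a median log2 fold change of -0.18. DESeq2 called 1 higher and 1 lower, and at an unadjusted p under 0.05 in edgeR 3 were higher and 3 lower (12.5% each). The one that fell, Glyma.02G208800 (VQ9-like), had 16.4, 11.1 and 19.9 FPKM in control and 5.18, 3.98 and 5.35 FPKM in acid-treated roots, without overlap (-1.69, SE 0.28, adjusted p = 0.0494 in edgeR). Glyma.13G005100 (VQ22-like) had a log2 fold change of 2.07 (adjusted p = 0.0940 in edgeR). Of 82 genes of mitogen-activated protein kinase cascades, which phosphorylate WRKY33 and others in Arabidopsis, 69 were tested and 0 were called by either tool. At an unadjusted p under 0.05 in edgeR, 0 were higher and 6 lower (8.70%), near the share of all tested genes (7.61% lower). The median log2 fold change of these kinase genes was 0.01.

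Of 51 genes of salicylate signalling and systemic acquired resistance 40 were tested. In edgeR 0 were called, with 8 higher and 4 lower at an unadjusted p under 0.05, whereas DESeq2 called 4 higher. The PR1-like gene Glyma.13G251600, a marker of salicylate response, had 1.06, 3.23 and 0 FPKM in control and 2123, 138.9 and 4.37 FPKM in acid-treated replicates 1, 2 and 3 (log2 fold change 9.04, adjusted p = 0.142 in edgeR). Glyma.13G252000, a second PR1-like gene, had 1550, 106 and 1.84 FPKM in the same acid-treated libraries and at most 2.75 FPKM in control (8.48, adjusted p = 0.158 in edgeR). Acid-treated replicate 1 was the highest library for these PR1-like genes, the called WRKY40 gene and both tested WRKY75 genes. Acid-treated replicate 2 was highest for the WRKY40 genes Glyma.17G222300 and Glyma.04G061400, and acid-treated replicate 3 for Glyma.07G057400. By CPM, acid-treated replicate 1 was highest in 32 of the 109 tested members, replicate 2 in 9 and replicate 3 in 3. The part of a salicylate response in the WRKY values was not tested.

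Phosphate exporters of the PHO1 kind and PHT1 transporters, which WRKY6, WRKY42, WRKY45 and WRKY75 are known to regulate in Arabidopsis, numbered 28, of which 19 were tested, 0 rose and 1 fell in edgeR. At an unadjusted p under 0.05 in edgeR, 0 were higher and 11 lower (57.9%, against 7.61% of all tested genes). DESeq2 called 0 higher and 5 lower (22.7%, against 1.55% of all genes). Their median log2 fold change was -0.86. The gene that fell was Glyma.02G005800 (-7.91, adjusted p = 0.00122 in edgeR), with 21.2, 40.98 and 46.04 FPKM in control and 0.11, 0.11 and 0.22 FPKM in acid-treated roots, and the next by size, Glyma.20G204000, had -2.41 (adjusted p = 0.154 in edgeR). Of 29 aluminium-activated malate transporter genes 11 were tested, 0 rose and 1 fell, Glyma.20G216800 (-3.67, adjusted p = 0.0199 in edgeR), followed by Glyma.10G173400 (-2.41, adjusted p = 0.120 in edgeR). None of the 11 was higher at an unadjusted p under 0.05 in edgeR, and 2 were lower (18.2%, against 7.61% of all tested genes). DESeq2 called 0 higher and 2 lower (10.5%, against 1.55% of all genes). No WRKY gene carried the number 45, and no binding of any WRKY protein was measured.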

How the data were processed

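RNA of 6 soybean root libraries was sequenced on the BGISEQ-500. The authors filtered the reads, mapped them with HISAT to the build Williams82.a2.v1, rebuilt transcripts with StringTie, extended the reference with predicted coding transcripts, aligned the reads again with Bowtie2 and estimated an expected count for each gene with RSEM. The authors deposited FPKM values from the same step, and the gene length used. Tool versions are not given in the sources used here. Between 85.7% and 87.2% of a library's expected counts were whole to within 0.001. Reads shared between near-identical copies were split by RSEM, so values of recent duplicates are less certain.

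Groups came from the labelled pH, and a gene not listed for a library was set to 0. Members were matched by description. Expected counts were rounded, filtered with filterByExpr, scaled by TMM and tested with edgeR 4.0.16 (robust quasi-likelihood, R 4.3.3) over all genes with Benjamini-Hochberg adjustment, with a call at an adjusted p-value under 0.05 and 2-fold. SE was obtained from the fold change (log2) and the F statistic. Alternatives were DESeq2 1.42.0, RLE scaling, no filter, a mean count of at least 50, limma-trend (limma 3.58.1) on log2 FPKM after adding 0.1 or 1, which understates the change of low genes, a replicate block and each library left out. The procedure was tested on simulated data.

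Named genes were the called members, the 5 most abundant, the 5 tested members with the largest and smallest log2 fold change, and, among tested genes numbered 6, 33, 40, 45, 46, 47, 70 or 75, those whose values are given. Members and lists were chosen with earlier results of these data known. WRKY groups follow the Arabidopsis number. No coordinates or sequences are given.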

Additional observations from a re-analysis of the deposited data

How the results depend on the processing

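The count of members called higher was 1 in edgeR with all libraries. It was 3 with DESeq2, 2 without a filter on low counts, 0 with a mean count of at least 50, 0 with the replicate block, and from 0 to 3 when libraries were left out in turn, with 0 without acid-treated replicate 1 or 2 or control replicate 1 or 3. The count called lower was 0, and it was 2 with DESeq2 and from 0 to 8 over the libraries left out, with 8 without control replicate 2. DESeq2 without control replicate 2, added after seeing the data, gave 3 higher and 13 lower. RLE scaling and limma on either pseudocount gave 1 higher and 0 lower.

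For the pairing, acid-treated and control libraries with the same number had deviations correlated at -0.15, -0.05 and -0.39, so no pairing by number was seen. Deviations from a group mean cancel within the group, which ties these correlations to each other, so they cannot exclude a pairing. With the replicate block, Glyma.14G103100 had a log2 fold change of 4.07 and an adjusted p of 0.0734 in edgeR. Acid-treated replicate 1 correlated best with control replicate 3 (0.52).

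Over the 44 named members, 553 of 599 values kept their direction and side of the threshold, 30 passed it newly, 5 lost it and 11 changed sign. The sign changes were in Glyma.17G197500 (-0.0036 with a mean count of at least 50, -0.0164 and -0.0159 in limma with pseudocounts of 0.1 and 1, -0.0057 with the replicate block, and from -0.225, without acid-treated replicate 1, to 0.18 over the libraries left out, with -0.135 without control replicate 1), Glyma.16G026400 (0.120 without control replicate 1, the other end of the range being -0.67 without control replicate 2) and Glyma.05G215900 (0.238 and 0.142 in limma, 0.137 with the replicate block, 0.197 without control replicate 1, the other end being -0.75 without control replicate 2). The cause was not tested. With 3 libraries a group and the depth given above, members at a few counts could only be called at large differences.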
